A study of Homo sapiens with 8 samples.

Results

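RNA sequencing measured transcript levels in MEL202, a human uveal melanoma cell line with a mutant allele of SF3B1, which encodes a splicing factor, and the comparison described here sets 2 of its engineered lines against each other. One is the mutant-knockout line (mut-SF3B1 KO in the labels), in which the mutant SF3B1 allele was knocked out. The other is the wildtype degron line (DD-wt-SF3B1), in which wildtype SF3B1 carries a destabilising domain (DD), a tag that has its protein degraded unless the ligand Shld is present. The members were the libraries whose column names begin with the mutant knockout and those whose names begin with the wildtype DD knock-in, 4 of the 8 libraries of the series. The other 4 libraries were parental cells and a mutant degron line (DD-mut-SF3B1), each with and without Shld.

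Each of the 2 lines had 1 library plus Shld and 1 library minus Shld, so no state had a replicate. For both lines the labels give 2 days. The column names tell more: they describe the knockout line as also carrying the DD knocked in at wildtype SF3B1, and give 4 days without Shld for it and 2 days for the wildtype degron line. By the column names both lines therefore carry a wildtype degron and differ in the mutant allele, while the time without Shld differs too. The labels name no degron for the knockout line and do not say that it lacks one. The labels list every line under the tag clone; that each line was derived more than once is not stated, so an effect of the allele and a difference between 2 derived lines cannot be told apart. That libraries came from separate cultures is not stated either, and p-values measure the spread between the Shld states of the same line.

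SF3B1 is the largest SF3b protein. Within the U2 particle of the spliceosome SF3b holds the branch point adenosine of an intron before splicing. Hotspot mutations of SF3B1 in uveal melanoma lead to use of cryptic 3′ splice sites, and mutant cells still need the wildtype protein. Uveal melanoma arises from melanocytes of the eye. Melanocytes depend on the transcription factors MITF and SOX10 for pigment genes, and growth of the tumours depends on signalling from mutated Gq proteins.

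Values are of the FPKM type (fragments per kilobase of transcript, scaled to library size) that the authors rescaled to a 75th percentile of 10, called rescaled FPKM below; they are not counts, and absolute library depth is unknown. The most frequent ratio of low values gave 1.45 and 1.05 times as many fragments per unit in the knockout line, with and without Shld, as in the parental library with Shld, and 1.19 and 1.07 times in the wildtype degron line. The knockout and wildtype degron pairs had Pearson correlations of 0.987 and 0.994 across tested loci between their own Shld states. Ribosomal protein genes took 20.4% and 19.2% of all rescaled FPKM in the knockout libraries, against 13.3% and 12.9% in the wildtype degron libraries; the remaining 4 held 17.8% to 22.5%. All 8 melanocyte markers (MITF, TYR, TYRP1, DCT, PMEL, MLANA, SOX10 and S100B) were detected in every library. Endothelial markers summed to 0.56 to 0.79 rescaled FPKM in both lines and epithelial markers to 0.30 to 1.54, with 0 of 7 and 0 of 8 members high enough to be tested. Fibroblast markers summed to at most 1.83 in the knockout line and 14.5 in the wildtype degron line; 1 of 10 was tested, LUM, at 1.66 and 1.61 in the knockout line against 12.9 and 10.8 in the wildtype degron line, and THY1 was listed at 0 in all of them. CD68, which melanoma cells also express, was the 1 of 10 blood and immune markers tested, and their sum was 805 to 834 in the knockout line and 645 to 675 in the wildtype degron line; CD3E, HBA1 and HBB were listed at 0. Of 7 Schwann and glial markers 3 were tested, 1 called higher and 1, S100B, lower, and their sum was 529 and 560 in the knockout line against 340 and 360 in the wildtype degron line. The part of these markers in other results was not tested.

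SF3B1 itself stood at 158 and 138 rescaled FPKM with and without Shld in the knockout line, where the wildtype degron line had 188 and 201. The knockout libraries lay below the wildtype degron libraries and both lines lay below the other 4 libraries, which ranged from 240 to 266. The log2 difference, knockout less wildtype degron, was -0.39 ± 0.10 (± is the standard error throughout; limma, Benjamini-Hochberg adjusted p = 0.0086). Without the wildtype degron library minus Shld the difference was -0.35 and the adjusted p was 0.067. The table holds 1 value for both alleles, so the mutant transcript could not be read on its own.

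The lines differed over much of the transcriptome. Of 8601 named loci tested (mean of at least 5 rescaled FPKM over the 8 libraries), 4473 passed an adjusted p of 0.05 in limma on log2(value + 1), which is 52.0%. Of these 2234 (26.0%) were higher and 2239 (26.0%) lower in the knockout line. On this scale the differences of low genes are understated. At least 2-fold differences were fewer, at 611 loci (7.10%): 222 loci (2.58%) were higher and 389 (4.52%) lower in the knockout line. For 6476 loci (75.3%) the 2 knockout libraries did not overlap with the 2 wildtype degron libraries. Where genes below are said not to overlap between the lines, they share this with most loci, and it adds no support to their calls. Counts of gene groups below, other than those after a trend was removed, are read against these shares of all loci and a median difference of +0.01. The difference had the same sign in both Shld states at 7510 of the 8601 loci; called loci do so by construction, since the 2 states set the spread. Across the 8601 loci the differences with and without Shld had a Pearson correlation of 0.937 (Spearman 0.904); loci are not independent replicates. The difference also varied with the GC content of transcripts (Spearman -0.366). Each gene group is therefore also given with its counts after the trend with transcript length and GC was removed. These counts cover the members with a transcript in the annotation (22 of 27 for oxidative phosphorylation, at most 1 fewer than tested elsewhere). They are read against 1997 loci higher and 1820 lower of 7972 after the same removal, with a median of +0.02.

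**Figure D1:**
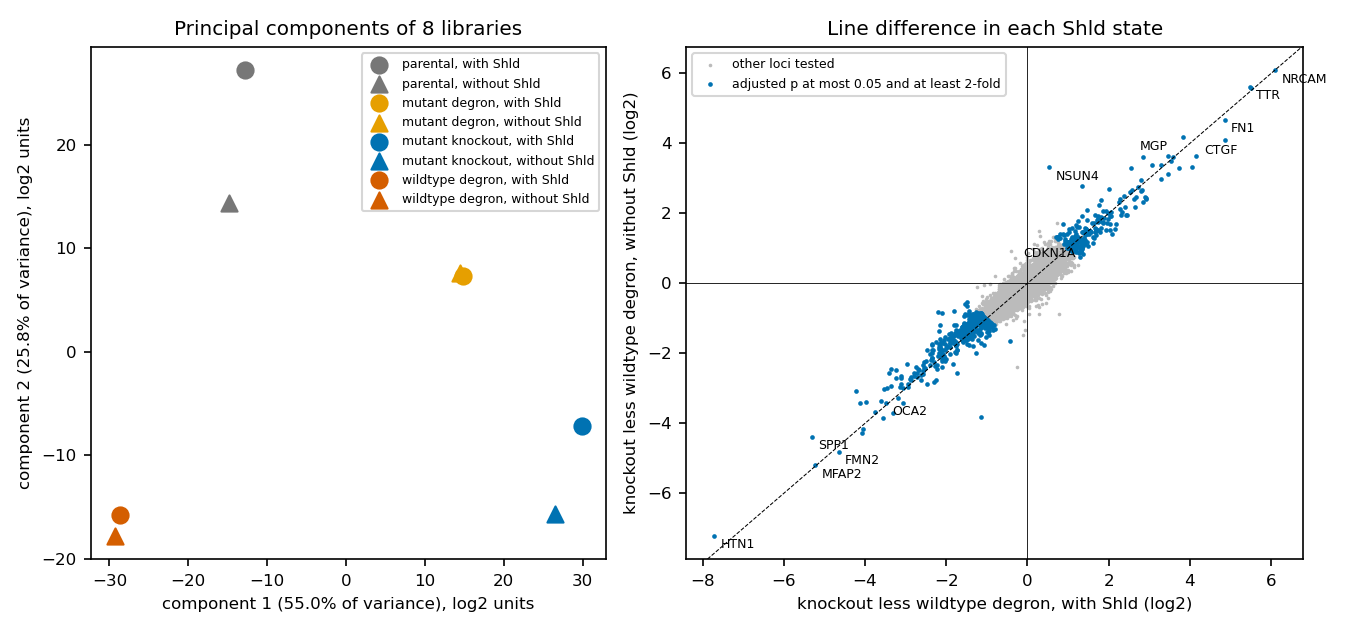
Left, the first 2 principal components of the 8 libraries over the loci tested, in log2 units (55.0% and 25.8% of the variance); colours give the line, circles libraries with Shld and triangles those without. Right, each point is 1 of 8601 loci, with the log2 difference between knockout and wildtype degron line with Shld on the horizontal axis and without Shld on the vertical axis; blue points passed an adjusted p of 0.05 and differed at least 2-fold. The knockout and wildtype degron libraries lie at opposite ends of component 1. Most blue points lie close to the diagonal. Exceptions include NSUN4 (above it), LOC390660 (below it, unlabelled) and SEL1L3 (above it, unlabelled, at -4.23 with Shld and -3.09 without).

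The genes with the largest differences in favour of the knockout line included some for adhesion, matrix and signalling proteins. NRCAM, a neuronal cell adhesion molecule, stood at 93.5 and 100.2 rescaled FPKM with and without Shld in the knockout line against 0.375 and 0.488 in the wildtype degron line (log2 difference +6.10 ± 0.12, limma adjusted p = 5.2e-09). TTR, which encodes the thyroid hormone carrier transthyretin, stood at 87.3 and 93.7 against 0.973 and 0.929 (+5.55 ± 0.11). Both genes were thus below 1 in one line and above 87 in the other. FN1, the matrix glycoprotein fibronectin, stood at 1140 and 1253 in the knockout line against 38.3 and 47.9 in the wildtype degron line (+4.77 ± 0.14, adjusted p = 1.1e-07), and MGP, matrix Gla protein, at 702 and 803 against 57.7 and 64.2 (+3.60 ± 0.10). FN1 was highest in the knockout line of all 8 libraries, whereas MGP was higher still in the mutant degron line, at 1120 and 1213. F2R, the thrombin receptor PAR1, stood at 131 and 130 against 10.4 and 10.6 (+3.51 ± 0.13). B4GALT6, a glycosyltransferase of lactosylceramide synthesis, stood at 50.4 and 39.6 against 3.63 and 3.64 (+3.30). NPR3, the clearance receptor of natriuretic peptides, had a difference of +4.48, and SCRG1 stood at 13.2 and 18.3 against 0 and 0.0738. The other leading genes were CTGF, SAMD11, RASL11B, the microtubule-binding protein gene EML6, the histone pseudogene H2BFXP, C19orf63,EMC10 of the ER membrane complex and the innate immune adaptor MYD88, with differences between +3.23 and +5.55. H2BFXP shares sequence with other histone genes, so its reads may be split among them.

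The genes with the largest differences the other way included secreted and matrix proteins as well. HTN1, which encodes the salivary peptide histatin 1, stood at 0.754 and 1.35 rescaled FPKM in the knockout line against 367 and 347 in the wildtype degron line (log2 difference -7.46 ± 0.14, limma adjusted p = 5.2e-09). HTN1 has a close paralogue, HTN3, to which reads may be assigned, and HTN3 was also lower in the knockout line. MFAP2, a microfibril-associated glycoprotein, stood at 1.62 and 1.56 against 96.8 and 93.0 (-5.21 ± 0.10). SPP1, the secreted phosphoprotein osteopontin, stood at 9.84 and 20.1 against 428 and 440 (-4.85 ± 0.25, adjusted p = 1.6e-06). These 3 genes did not overlap between the lines, and the parental values of SPP1, 505 and 409, lay with the wildtype degron line. FMN2, a formin that nucleates actin filaments, stood at 4.54 and 3.93 against 138 and 137 (-4.73). POSTN, the matricellular protein periostin, stood at 7.53 and 11.6 against 149 and 134 (-3.78 ± 0.17), so 2 matrix genes, FN1 and POSTN, differed in opposite directions by more than 10-fold. OCIAD2 was listed at 0 in both knockout libraries and stood at 15.9 and 18.2 in the wildtype degron line. PSMD5, a chaperone of proteasome assembly, stood at 0.0255 and 0.0351 against 16.1 and 17.6 (-4.11), and SEC24C, a coat protein of vesicles that leave the ER, at 2.90 and 4.62 against 44.3 and 44.3 (-3.27). The other leading genes were GCHFR, the feedback regulator of GTP cyclohydrolase, the channel gene AQP9, SEL1L3, GPRIN3, CPN1, OCA2 and LHFPL3-AS1,LOC645591, with differences between -3.45 and -3.71. Strand is not known here, so reads of LHFPL3-AS1 and of its antisense partner cannot be told apart. All 30 leading genes were called under each alternative setting in which they were tested.

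**Figure D2:**
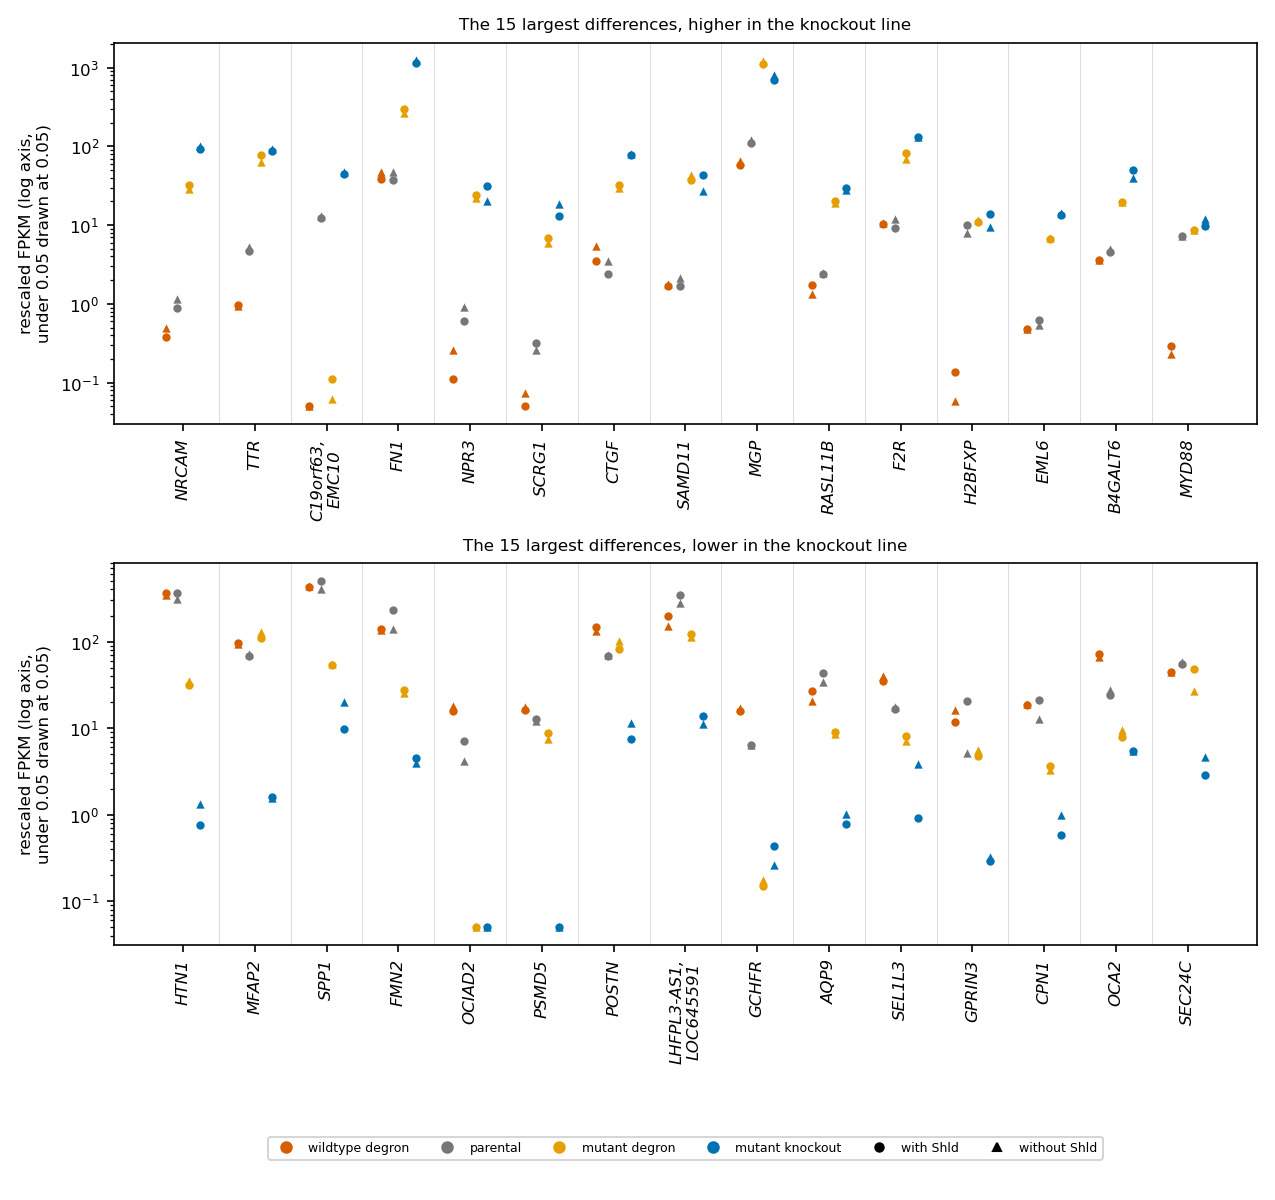
Rescaled FPKM (log axis) of the 15 genes with the largest differences in each direction, in all 8 libraries; colours give the line, circles libraries with Shld and triangles those without, and values under 0.05 are drawn at 0.05. For NRCAM, TTR, FN1 and HTN1 the mutant degron line (yellow) lies between the knockout line and the wildtype degron line, whereas for MFAP2, POSTN, PSMD5 and SEC24C the knockout line lies below all other libraries.

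Pigment cell genes were mostly lower in the knockout line. Of 28 genes of the melanocyte lineage and of melanosomes 21 were tested; 18 were lower, 9 of them at least 2-fold, and 0 were higher, with a median difference of -0.76 (18 lower, 0 higher and a median of -0.80 after the length and GC trend was removed). With quantile normalization the median was -0.95. OCA2, a melanosomal anion channel protein, stood at 5.40 and 5.42 rescaled FPKM with and without Shld in the knockout line against 71.1 and 67.1 in the wildtype degron line (-3.45 ± 0.11, limma adjusted p = 1.6e-07). TYR, tyrosinase, the first enzyme of melanin synthesis, stood at 127 and 161 against 502 and 562 (-1.89 ± 0.14, adjusted p = 1.4e-05). For both genes the lines did not overlap, and the mutant degron line lay close to the knockout line, at 7.84 and 9.57 for OCA2 and at 157 and 194 for TYR. Parental cells lay between the knockout and wildtype degron lines, at 24.4 and 27.6 for OCA2 and at 361.5 and 402.5 for TYR. Over the list, the median against the wildtype degron line was -0.16 for parental cells and -0.54 for the mutant degron line. DCT, dopachrome tautomerase, stood at 2.04 and 1.15 against 16.7 and 10.4 (-2.47 ± 0.22). RAB27A and its effector MLPH, which tether melanosomes to actin, stood at 7.03 and 8.03 against 34.3 and 36.0 (-2.09) and at 49.4 and 43.0 against 168 and 146 (-1.74). PMEL, which builds the melanosome's fibrils, stood at 2585 and 2365 against 7945 and 7156 (-1.61 ± 0.16). MITF and SOX10, the transcription factors, differed less than these genes, by -0.51 and -0.71. MITF stood at 135 and 139 against 187 and 203, and SOX10 at 244 and 254 against 393 and 426. PAX3 and S100A1 overlapped between the lines, and they and ST3GAL6 (+0.21) were not called. The remaining members were S100B, the endothelin receptor gene EDNRB, SLC24A5, MLANA, CAPN3, MYO5A, TYRP1, GPR143, RAB38 and GPNMB, with differences between -1.57 and -0.38. Without the wildtype degron library plus Shld the calls of TYRP1 (adjusted p = 0.0504), RAB38 (0.0574), GPR143 (0.187) and GPNMB (0.144) were lost. GPR143 also lost its call without the knockout library minus Shld (0.0599), and GPNMB without the knockout library plus Shld (0.091) and the wildtype degron library minus Shld (0.0686). In RNA from whole cultures, fewer pigmented cells and less pigment gene RNA per cell cannot be told apart.

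The promoters of TYR and OCA2 are shown because these 2 pigment genes span the list from an enzyme to a channel and both hold the E-box motif CATGTG, which MITF is known to bind. The sequences are RefSeq's, on the GRCh38.p14 build and not on the hg19 build of the authors' alignment, from 250 bases before to 50 bases after the start of the gene, read 5′ to 3′ on the gene's strand, with each CATGTG or CACGTG match on either strand in capitals. TYR lies at chr11:89177625-89177924 on the + strand and OCA2 at chr15:28099266-28099565 on the - strand.
TYR: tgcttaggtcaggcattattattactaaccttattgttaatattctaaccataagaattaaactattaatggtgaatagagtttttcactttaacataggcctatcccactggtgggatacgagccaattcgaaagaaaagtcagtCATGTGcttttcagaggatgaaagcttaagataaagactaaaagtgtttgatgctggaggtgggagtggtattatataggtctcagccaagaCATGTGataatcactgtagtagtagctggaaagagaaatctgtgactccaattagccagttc
OCA2: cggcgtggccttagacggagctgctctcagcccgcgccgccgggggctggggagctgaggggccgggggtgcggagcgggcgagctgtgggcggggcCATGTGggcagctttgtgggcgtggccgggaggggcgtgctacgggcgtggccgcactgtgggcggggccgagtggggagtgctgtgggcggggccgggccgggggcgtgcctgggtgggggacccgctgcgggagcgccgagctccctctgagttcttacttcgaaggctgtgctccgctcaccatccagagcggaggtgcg
Of the 21 members tested 17 had a promoter in the table, and 8 of these held CATGTG or CACGTG, all of them among the 14 called lower. The members without either motif were MITF, RAB27A, DCT, MLANA, CAPN3, MYO5A and the 3 that were not called. Either motif was present in 17.6% of all 35116 RefSeq promoters (CATGTG in 11.1% and CACGTG in 7.26%). A match is a string of letters and not evidence of binding.

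Genes of the TGF-beta and BMP pathways were mostly higher in the knockout line. In this family secreted ligands bind receptor kinases that activate SMAD proteins, and the ID genes and inhibitory SMADs are known targets. Of 29 genes 18 were tested; 14 were higher, 8 of them at least 2-fold, and 2 were lower, with a median of +0.77 (14 higher, 1 lower and +0.81 after the length and GC trend was removed). Among the targets, ID3, an inhibitor of basic helix-loop-helix factors, stood at 173 and 262 rescaled FPKM in the knockout line against 34.8 and 48.2 in the wildtype degron line (+2.35 ± 0.19, limma adjusted p = 2.5e-05). ID1 stood at 66.4 and 70.9 against 17.2 and 18.7 (+1.88 ± 0.09) and ID2 at 72.3 and 73.3 against 21.8 and 24.7 (+1.61). The inhibitory SMAD6 stood at 27.5 and 34.2 against 3.82 and 4.57 (+2.61 ± 0.13, adjusted p = 1.3e-06). In none of these 4 genes did the lines overlap, and the parental libraries lay near the wildtype degron line and the mutant degron libraries near the knockout line. SMAD7 (+1.00), SMAD9 (+1.10), the transcriptional corepressor SKIL (+1.32), the BMP receptor BMPR1A (+0.95) and the TGF-beta receptor TGFBR1 (+0.53) were also higher. TGFBI, a matrix protein induced by TGF-beta, stood at 80.7 and 43.7 against 13.9 and 10.6 (+2.20 ± 0.28) and, unlike the genes above, was lowest in the mutant degron line. The 2 lower members were ligands: BMP4 stood at 5.33 and 5.63 against 9.50 and 12.1 (-0.86) and TGFB1 at 44.6 and 43.0 against 51.4 and 52.2 (-0.24, adjusted p = 0.05); the call of TGFB1 was lost without each of the 4 libraries in turn, with adjusted p between 0.0749 and 0.173. TGFBR2 and BAMBI were not called.

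**Figure D3:**
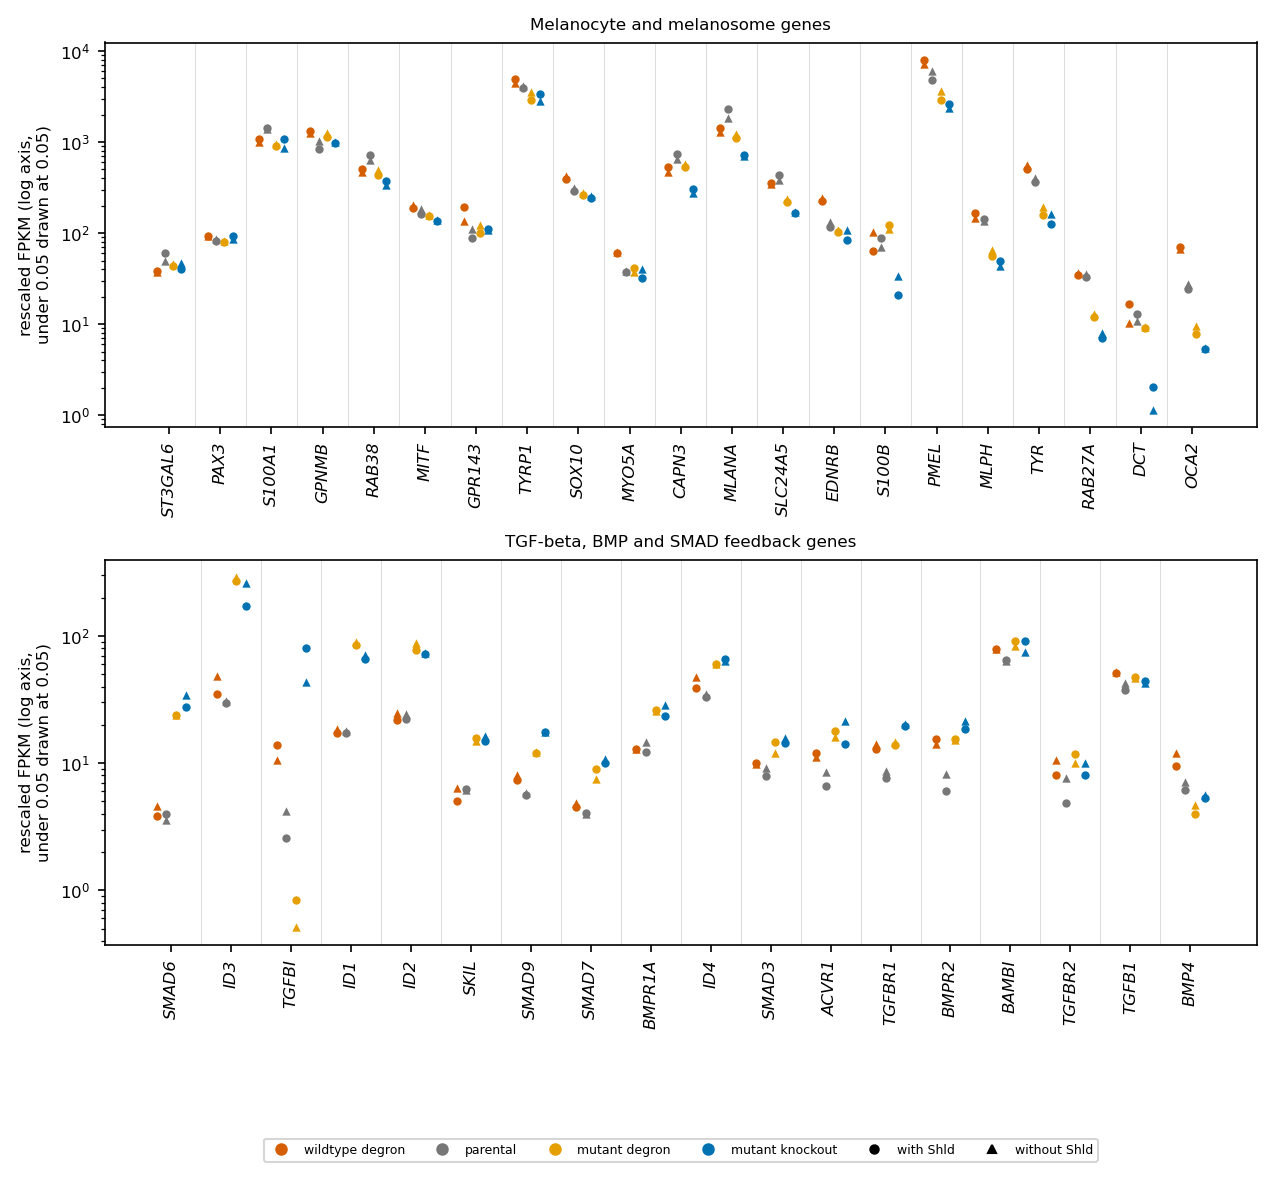
Rescaled FPKM (log axis) of the tested melanocyte and melanosome genes (top) and of the tested TGF-beta, BMP and SMAD feedback genes (bottom) in all 8 libraries, with colours for the line, circles with Shld and triangles without. OCA2, DCT, RAB27A and TYR are lower in the knockout line (blue) than in the wildtype degron line (red), and SMAD6, ID1, ID2 and ID3 are higher in both the knockout and the mutant degron line (yellow).

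Genes of the YAP and TEAD arm of the Hippo pathway, a list that holds both its effectors and their known targets, were also mostly higher. Of 20 genes 11 were tested; 8 were higher, 4 of them at least 2-fold, and 1 was lower, with a median of +0.67 (8 higher, 1 lower and +0.61 after the length and GC trend was removed). CTGF, a matricellular growth factor also known as CCN2, stood at 78.5 and 79.1 rescaled FPKM in the knockout line against 3.51 and 5.42 in the wildtype degron line (+3.89 ± 0.18, limma adjusted p = 9.7e-07). CRIM1, a transmembrane protein that binds BMPs, stood at 34.1 and 26.6 against 3.85 and 4.47 (+2.59 ± 0.14), and AMOTL2, an angiomotin that binds YAP, at 39.6 and 41.4 against 6.53 and 10.0 (+2.19 ± 0.18). DLC1, a GTPase-activating protein, stood at 130 and 122 against 45.5 and 57.8 (+1.28). The 8 higher members include 2 coactivators, YAP1 (+0.65) and WWTR1 (+0.54), and the 1 lower member was their DNA-binding partner TEAD1 (-0.34). WWTR1 lost its call without the wildtype degron library plus Shld (adjusted p = 0.0738), and TEAD1 without the knockout library plus Shld (0.15) and the wildtype degron library minus Shld (0.213). The kinase gene LATS2 and the phosphatase gene PTPN14 were not called.
The promoter of CTGF is shown because it had the largest difference in this group and holds GGAATG, the core of the motif that TEAD factors are known to bind. It lies at chr6:131951323-131951622 on the - strand of GRCh38.p14 and is RefSeq's, with the GGAATG matches of either strand in capitals.
CTGF: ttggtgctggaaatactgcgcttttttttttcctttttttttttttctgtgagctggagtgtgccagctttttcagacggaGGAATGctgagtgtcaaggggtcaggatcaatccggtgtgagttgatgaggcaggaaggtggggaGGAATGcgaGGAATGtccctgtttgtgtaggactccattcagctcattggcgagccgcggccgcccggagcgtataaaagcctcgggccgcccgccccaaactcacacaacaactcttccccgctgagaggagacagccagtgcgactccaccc
It held 3 matches, where 14% of all 35116 promoters held at least 1. Of the 11 members tested 8 had a promoter, 4 of which held a match; of the 6 called higher among them 2 did.

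Matrix, adhesion and neural crest genes divided, with more members higher than lower. Of 41 collagens, laminins and matrix glycoproteins 17 were tested; 11 were higher and 3 lower, with a median of +0.71 (12 higher, 2 lower and +0.81 after the length and GC trend was removed). Besides FN1 and TGFBI these included COL4A5 of basement membranes, at 18.9 and 16.4 rescaled FPKM against 5.36 and 4.22 (+1.69), and the fibril-associated or fibrillar chains COL9A3, at 177 and 186 against 63.5 and 66.3 (+1.47), and COL11A1, at 395 and 468 against 164 and 152 (+1.44). None of these 3 collagens overlapped between the lines. POSTN and the laminin chains LAMC1 (-0.54) and LAMB2 (-0.28) were lower, whereas the chain LAMB1 was higher (+0.85). LAMC1 lost its call without the wildtype degron library minus Shld (adjusted p = 0.0513). LAMB2 lost its own without that library (0.0974), the knockout library plus Shld (0.147) or the wildtype degron library plus Shld (0.16). Of 11 integrins, cadherins and protocadherins tested 7 were higher and 2 lower, with a median of +0.70 (6 higher, 1 lower and +0.47 after the length and GC trend was removed). CDH2, N-cadherin, stood at 12.6 and 11.9 against 4.01 and 3.36 (+1.50 ± 0.12, limma adjusted p = 1.6e-05) and ITGB1, the shared integrin beta 1 chain, at 362 and 396 against 224 and 240 (+0.70). ITGA7, a laminin-binding integrin chain, went the other way, at 2.03 and 2.46 against 12.0 and 15.2 (-2.16). Of 10 neural crest, EMT and neuronal genes tested, NRCAM and CDH2 among them, 7 were higher and 2 lower (8 and 2 after the trend was removed). SNAI2, a repressor of the Snail family, stood at 195 and 167 against 79.4 and 79.4 (+1.17), and FOXD3 (+0.72) and SOX9 (+0.74) were also higher. L1CAM, an adhesion molecule of the same family as NRCAM, was lower, at 11.2 and 8.41 against 25.3 and 21.3 (-1.18).

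Proteases that act on matrix, and their inhibitors, did not share a direction: of 14 tested 3 were higher and 6 lower, with a median of -0.25 (3, 3 and +0.06 after the length and GC trend was removed). MMP17, a membrane-bound metalloprotease, stood at 294 and 316 rescaled FPKM against 59.7 and 71.1 (+2.21 ± 0.12) and ADAMTS1 at 22.9 and 24.3 against 8.23 and 8.08 (+1.43). The lysosomal cathepsins were lower, CTSL1 at 186 and 180 against 872 and 915 (-2.28 ± 0.11, limma adjusted p = 1.0e-06) and CTSB at 393 and 512 against 955 and 974 (-1.10). ADAM12 stood at 1.80 and 1.78 against 13.6 and 13.0 (-2.36). The metalloprotease inhibitor TIMP2 had a difference of -0.69.

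Ribosomal protein genes on the list used differed in one direction, mostly by less than 2-fold. The list holds 52 genes and not every ribosomal protein gene. RPL9 (+1.23), RPS27A (+1.14), RPL26 (+1.09), RPL39 (+1.07) and RPL21 (+1.05), outside it, were called at least 2-fold higher. Other genes outside it were not counted. Of 43 tested on the list 41 were higher in the knockout line, 1 of them at least 2-fold, and 0 lower. The list's median was +0.70 (41, 0 and +0.71 after the length and GC trend was removed). With quantile normalization, which compresses the top of the range, the median was +0.33 and all 8601 loci had a median of +0.03. RPL34 stood at 2770 and 2506 rescaled FPKM against 1287 and 1304 (+1.02 ± 0.15) and RPS18 at 13816 and 12335 against 6783 and 6520 (+0.97 ± 0.17). These genes have many processed pseudogenes that can take their reads. The parental cells were also above the wildtype degron line, with a median of +0.82, and the mutant degron line with +0.55; these contrasts share the wildtype degron libraries, which held the lowest summed level of the list in the series. Genes of ribosome biogenesis and MYC were higher in 10 of 17 and lower in 0 (11 and 0 after the trend was removed), led by NOP58, a core protein of box C/D small nucleolar ribonucleoproteins, at 118 and 121 against 60.1 and 53.3 (+1.07 ± 0.10). MYC itself stood at 291 and 283 against 217 and 198 (+0.46). Of 27 nuclear-encoded subunits of oxidative phosphorylation 15 were higher and 1, the succinate dehydrogenase subunit SDHA (-0.58), was lower. NDUFA4 stood at 300 and 302 against 142 and 140 (+1.09), and the list's median was +0.27 (14 higher, 2 lower and +0.28 after the length and GC trend was removed). Of 21 proteasome subunits 9 were higher and 0 lower, with a median of +0.19, led by the core particle subunits PSMA6 (+0.75) and PSMA3 (+0.74). After the length and GC trend was removed 7 were higher and 1 lower, with a median of +0.19. Against the wildtype degron line the proteasome median was +0.28 for parental cells and +0.33 for the mutant degron line. For oxidative phosphorylation these medians were +0.54 and +0.39. The wildtype degron libraries held the lowest summed levels of both lists in the series. Of 6 small nucleolar RNA host genes 4 were higher and 0 lower (3 and 0 after the trend was removed). Here too parental cells (+0.83) and the mutant degron line (+0.49) had medians above the wildtype degron line. SNHG8 (+0.74) and EPB41L4A-AS1 (+0.77) held without each library in turn, whereas SNHG6 lost its call without the knockout library plus Shld (adjusted p = 0.088) and without either wildtype degron library (0.075 and 0.054), and SNHG10 likewise without the same libraries (0.23, 0.15 and 0.088).

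Splicing genes are of interest because SF3B1 is the engineered gene. Of 15 genes of SF3a, SF3b and U2 proteins tested 6 were higher and 4 lower, 0 of them 2-fold, with a median of +0.15 (4 higher, 3 lower and +0.05 after the length and GC trend was removed). Within SF3b, SF3B2 was lower beside SF3B1, at 147 and 147 rescaled FPKM against 197 and 205 (-0.45), and the small subunits SF3B14 (p14), at 232 and 243 against 136 and 151 (+0.73), PHF5A (+0.62) and SF3B5 (+0.45) were higher. SF3B3 was not called. SUGP1, a G-patch protein that works with SF3B1 at the branch site, stood at 19.0 and 20.4 against 35.4 and 37.1 (-0.85 ± 0.10, limma adjusted p = 0.00024). Of 27 core spliceosome proteins outside SF3, 12 were higher and 4 lower, with a median of +0.11 (13, 4 and +0.22 after the trend was removed). The higher ones included the Sm proteins SNRPG (+0.89), SNRPD1 (+0.83) and SNRPE (+0.81), and the lower ones the U5 helicase SNRNP200 (-0.43) and the tri-snRNP proteins PRPF6 (-0.56) and SART1 (-0.75). Of 22 SR proteins and hnRNPs 7 were higher and 4 lower, with a median of +0.19 (7, 3 and +0.02 after the trend was removed); SRSF7 stood at 216 and 182 against 89.6 and 87.7 (+1.15 ± 0.11) and SRSF3 at 272 and 223 against 150 and 141 (+0.76). Of 13 factors of nonsense-mediated decay 7 were higher and 1 lower. UPF3B stood at 12.8 and 10.6 against 6.93 and 4.75 (+0.91), and the helicase UPF1 was lower (-0.29), a call that was lost without the wildtype degron libraries plus (adjusted p = 0.0901) or minus Shld (0.0611). After the trend was removed 5 were higher and 0 lower.

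Genes with known mis-spliced transcripts under mutant SF3B1 are described here at the level of the whole gene, since the table holds no junctions or isoforms. Of 21 tested 8 were higher in the knockout line and 2 lower, with a median of +0.16, against 26.0% and 26.0% of all loci. After the length and GC trend was removed 10 were higher and 1 lower, with a median of +0.29. DPH5, an enzyme of diphthamide synthesis, stood at 35.0 and 31.7 rescaled FPKM against 11.5 and 10.7 (+1.51 ± 0.17, limma adjusted p = 0.00013). MAP3K7, the kinase TAK1, stood at 15.3 and 15.6 against 6.63 and 6.24 (+1.14 ± 0.11, adjusted p = 6.8e-05). The lines did not overlap in either gene. In the parental and the mutant degron line DPH5 stood at 19.4 and 15.8 (parental) and 15.4 and 22.5 (mutant degron) and MAP3K7 at 7.96 and 7.49 (parental) and 10.0 and 12.2 (mutant degron). RPL31 (+0.96), TTI1 (+0.90), DYNLL1 (+0.57), TMEM14C (+0.55), OXA1L (+0.48) and ARMC9 (+0.43) were the other higher members, and DVL2 (-0.33) and COASY (-0.27) the lower ones. OXA1L and COASY lost their calls without the knockout library plus Shld (adjusted p = 0.0818 and 0.0823) and without the wildtype degron library minus Shld (0.216 and 0.18). BRD9, a subunit of the non-canonical BAF complex, stood at 44.0 and 28.4 against 32.0 and 28.5 and was not called (+0.22, adjusted p = 0.30), and its lines overlapped. Of 21 genes on a list of BAF subunits 4 were higher and 5 lower, with a median of -0.07. After the trend was removed 6 were higher and 2 lower, with a median of +0.05. The list also holds SMARCA1, an ISWI ATPase and not a BAF subunit, which was among the higher genes and had the largest difference (+0.87).

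Cell cycle genes differed in part. Their medians are also given by Shld state, with 1 library per line in each state and no test of that dependence beyond the test per locus given last. Of 33 genes for G1/S and for DNA replication 13 were higher and 2 lower, with a median of +0.36 (+0.37 with Shld and +0.16 without; 9 higher and 0 lower after the length and GC trend was removed). CCNE2, a cyclin of S phase entry, stood at 70.7 and 48.9 rescaled FPKM against 22.6 and 21.6 (+1.37 ± 0.15, limma adjusted p = 0.00011) and TYMS, thymidylate synthase, at 305 and 211 against 160 and 142 (+0.75). The licensing factor CDT1 (-0.61) and the DNA ligase LIG1 (-0.56) were lower, but without the wildtype degron library plus Shld their adjusted p were 0.0704 and 0.132, and LIG1 also lost its call without the knockout library minus Shld (0.0904). Of 30 genes of G2/M and mitosis 2 were higher and 2 lower, with a median of +0.04, which was +0.28 with Shld and -0.18 without, and -0.14, with 1 higher and 3 lower, after the trend was removed. CDK1, the mitotic kinase, stood at 158 and 107 against 82.3 and 77.8 (+0.69) and CCNA2, its cyclin partner, was also called higher (+0.52). Without the wildtype degron library minus Shld the adjusted p was 0.057 for CDK1 and 0.11 for CCNA2, which also lost its call without the knockout library plus Shld (0.10). MKI67, a proliferation marker, was lower (-0.72), and without the wildtype degron library plus Shld its adjusted p was 0.061. Of 13 cyclins and CDK inhibitors 4 were higher and 4 lower (5 and 3 after the trend was removed). CDK6, a kinase of the G1 phase, stood at 38.5 and 36.8 against 7.75 and 10.7 (+1.94 ± 0.15), while its inhibitor CDKN2D stood at 5.25 and 3.32 against 13.5 and 12.2 (-1.42) and CDKN1B (-0.62) and CCND3 (-0.61) were lower.

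Of 19 target genes of p53 tested 10 were higher and 2 lower, with a median of +0.44 (9 higher, 1 lower and +0.47 after the length and GC trend was removed). The median was +0.29 with Shld and +0.67 without. TRIAP1, an inhibitor of apoptosis, stood at 94.0 and 104.6 rescaled FPKM against 46.2 and 45.8 (+1.09 ± 0.09, limma adjusted p = 1.9e-05) and FAS, a death receptor, at 19.2 and 20.8 against 9.01 and 10.1 (+0.99). For these 2 genes the knockout libraries lay together, and the lines did not overlap. TP53INP1 stood at 42.1 and 85.9 against 22.5 and 25.6 (+1.29) and SESN1 at 20.2 and 35.1 against 12.4 and 14.4 (+0.95), so in both the knockout library without Shld was the highest of the 4. GDF15, a secreted stress factor, was lower, at 202 and 667 against 931 and 1187 (-1.51 ± 0.43, adjusted p = 0.016), and without the wildtype degron library minus Shld its adjusted p was 0.083. CDKN1A, the p21 inhibitor of cyclin-dependent kinases, stood at 88.9 and 296 against 118 and 155; the lines overlapped and it was not called (+0.26). Without the knockout library minus Shld its difference was -0.60 with an adjusted p of 0.0082. Of 8 BCL2 family regulators (3 higher and 2 lower with and without the trend) 3 were higher, among them the BH3-only genes BID (+1.19) and BMF (+0.95), and 2 lower, among them BAD (-0.64); PMAIP1 (+0.51) lost its call without the wildtype degron library plus Shld (adjusted p = 0.083).

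Genes that report on MAPK signalling, the growth pathway below Gq in uveal melanoma, were more often lower. Of 12 tested 7 were lower, 3 of them at least 2-fold, and 2 higher, with a median of -0.50 (5 lower, 2 higher and -0.32 after the length and GC trend was removed). The mutant degron line (-0.58) and parental cells (-0.17) also had medians below the wildtype degron line. ETV5, an ETS factor, stood at 71.4 and 76.9 rescaled FPKM against 162 and 176 (-1.17 ± 0.08, limma adjusted p = 1.0e-05), IER3 at 22.4 and 33.4 against 72.6 and 90.4 (-1.53) and the phosphatase DUSP4 at 57.1 and 91.1 against 148 and 176 (-1.15). These 3 genes did not overlap between the lines. DUSP6, FOS and SPRED1 were not called. EPHA2, an ephrin receptor, and MYC were the higher members; EPHA2 (+0.78) lost its call without the wildtype degron library plus Shld (adjusted p = 0.068), and CCND1, cyclin D1 (-0.70), without the wildtype degron library minus Shld (adjusted p = 0.097). EGR1 (-0.49) lost its call without that same library (adjusted p = 0.055). Among 10 immediate early genes 5 were lower and 0 higher, but 2 lower after the trend was removed. JUND (-0.77) and NR4A1 (-0.51) were those of the 5 whose calls held without each library. The median of these 10 was -0.30, beside -0.44 for the mutant degron line and -0.19 for parental cells against the wildtype degron line. Among 13 genes of the driver pathways of uveal melanoma 4 were higher and 2 lower (3 and 3 after the trend was removed). RGS2, which speeds GTP hydrolysis by Gq, stood at 790 and 663 against 79.4 and 82.4 (+3.15 ± 0.11, adjusted p = 3.5e-07), the largest difference on that list by a wide margin, and EIF1AX was higher (+0.63). Of 11 genes used to class uveal melanomas 4 were higher and 2 lower (4 and 3 after the trend was removed). They included SATB1, a chromatin organiser, at 16.4 and 17.9 against 5.41 and 5.38 (+1.50), HTR2B, a serotonin receptor (+0.62), and ROBO1, an axon guidance receptor (-1.11).

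Genes of the integrated stress response, in which ATF4 induces amino acid supply genes, were more often lower than higher in the knockout line. Of 17 tested 11 were lower, 5 of them at least 2-fold, and 1 higher, with a median of -0.59 (9 lower, 2 higher and -0.45 after the length and GC trend was removed). Against the same wildtype degron libraries the median was -0.72 for the mutant degron line and -0.23 for parental cells, so lower levels were not particular to the knockout line. SLC7A5, a transporter of large neutral amino acids, stood at 101 and 132 rescaled FPKM against 523 and 580 (-2.24 ± 0.14, limma adjusted p = 4.3e-06), and SLC3A2, its heavy chain, at 272 and 311 against 502 and 540 (-0.84). TRIB3, a pseudokinase, stood at 24.2 and 26.6 against 64.8 and 74.5 (-1.42), and PCK2 at 16.9 and 17.8 against 40.3 and 47.0 (-1.28). None of these 4 genes overlapped between the lines. CEBPB (-1.01) and DDIT3, which encodes CHOP (-0.98), were lower, and ATF3 was not called. CHAC1, a glutathione-degrading enzyme, was called lower (-1.01), but its adjusted p was 0.13 without the knockout library plus Shld, at a difference of -0.32, and 0.052 and 0.18 without the wildtype degron libraries plus and minus Shld. MTHFD2, a mitochondrial folate enzyme, was the higher member (+0.51). Of 18 genes of ER folding and the unfolded protein response 6 were lower and 3 higher (4 and 2 after the trend was removed). MANF stood at 22.7 and 25.5 against 55.5 and 57.3 (-1.19), and LMAN1, a cargo receptor, at 60.4 and 58.5 against 31.8 and 21.7 (+1.15). CRELD2 (-0.44) lost its call without the knockout library minus Shld (adjusted p = 0.19) and without the wildtype degron libraries plus (0.088) and minus Shld (0.17). Of 10 cytosolic heat shock chaperones 2 were higher and 2 lower, as also after the trend was removed, of which HSPB1 (-0.62) and HSPA8 (+0.53) held without each library.

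Among metabolic genes, the lists of cholesterol and fatty acid synthesis and of glycolysis and hypoxia were more often lower than higher. The serine and one-carbon list and the iron and heme list held no clear excess over the 26.0% of all loci called in each direction. Of 23 genes of cholesterol and fatty acid synthesis 11 were lower and 3 higher, with a median of -0.34 (7 lower, 2 higher and -0.14 after the length and GC trend was removed). SCD, the stearoyl-CoA desaturase, stood at 572 and 441 rescaled FPKM against 1337 and 1188 (-1.32 ± 0.14, limma adjusted p = 0.00011), FASN, fatty acid synthase, at 321 and 244 against 684 and 501 (-1.06), and the transcription factor SREBF2 at 79.4 and 76.3 against 159 and 143 (-0.95). SQLE, squalene epoxidase, was higher, at 464 and 406 against 245 and 212 (+0.93), whereas DHCR7, which makes cholesterol in its last step, was lower (-0.86), so cholesterol enzymes differed in both directions. Of 18 genes of glycolysis and hypoxia 9 were lower and 1, the lactate dehydrogenase subunit LDHB (+0.44), higher, with a median of -0.37 (10 and 1 after the trend was removed). Medians against the wildtype degron line were -0.37 for the mutant degron line and -0.30 for parental cells. For cholesterol and fatty acid synthesis they were -0.18 and -0.23. PFKP, a phosphofructokinase, stood at 64.1 and 65.0 against 160 and 140 (-1.21 ± 0.10), and its sister gene PFKL was lower too (-0.71). Of 13 serine and one-carbon enzymes 4 were higher and 2 lower (5 and 3 after the trend was removed), with MTHFD1L, a mitochondrial folate enzyme, among the higher ones (+0.66). Of 12 genes of iron and heme 2 were higher and 3 lower (2 and 4 after the trend was removed). The heme oxygenase HMOX1 (-0.99) and ferritin heavy chain FTH1 (-0.58) were lower.

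The interferon response genes that were tested divided into a few large differences and more small ones. Members under the level filter were not tested and are not part of this picture. Of 28 genes 11 were tested. Among these 5 were lower, 4 of them at least 2-fold, and 0 higher, and the median was -0.20 (5, 0 and -0.22 after the length and GC trend was removed). The mutant degron line had a median of -0.41 against the wildtype degron line, and parental cells one of -0.11. IFI6 stood at 3.54 and 5.05 rescaled FPKM against 34.1 and 43.5 (-2.92 ± 0.17, limma adjusted p = 2.8e-06), IFITM3, which blocks virus entry, at 15.7 and 18.4 against 99.1 and 115 (-2.58 ± 0.11) and IFI35 at 7.20 and 5.36 against 39.5 and 43.8 (-2.56). The signal transducers STAT2 and IRF9 and the targets ISG15 and IFIT3 were not called, with differences between -0.17 and +0.15. IFITM3 and IFITM2 are close paralogues, and reads may be split between them. Of 7 genes of MHC class I presentation 3 were lower and 0 higher (3 and 0 after the trend was removed), the peptidase ERAP2 (-0.71), the peptide transporter subunit TAP2 (-0.54) and HLA-F (-0.53); HLA genes share sequence. Of 8 inflammatory and NF-kappaB genes (2 lower and 3 higher after the trend was removed) 3 were lower, among them NFKB2 (-0.83) and NFKB1 (-0.51), and 2 higher. MYD88 stood at 9.88 and 11.9 against 0.296 and 0.231, while the kinases IRAK1 and IRAK4, which bind it, were not called. ICAM1 (-0.72) lost its call without the knockout library plus Shld (adjusted p = 0.059) and the wildtype degron library minus Shld (0.088), and NFKBIA (+0.34) lost its own without any 1 of the knockout library plus Shld and the wildtype degron libraries plus and minus Shld (0.12, 0.058 and 0.12). Of 16 developmental regulators of the HOX, SOX and PAX families and their like 5 were higher and 4 lower (5 and 3 after the trend was removed). The homeobox genes DLX2, at 9.79 and 16.3 against 1.67 and 1.66 (+2.36 ± 0.20), and DLX1 (+1.25) led the higher ones, and SOX10 the lower ones.

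**Figure D4:**
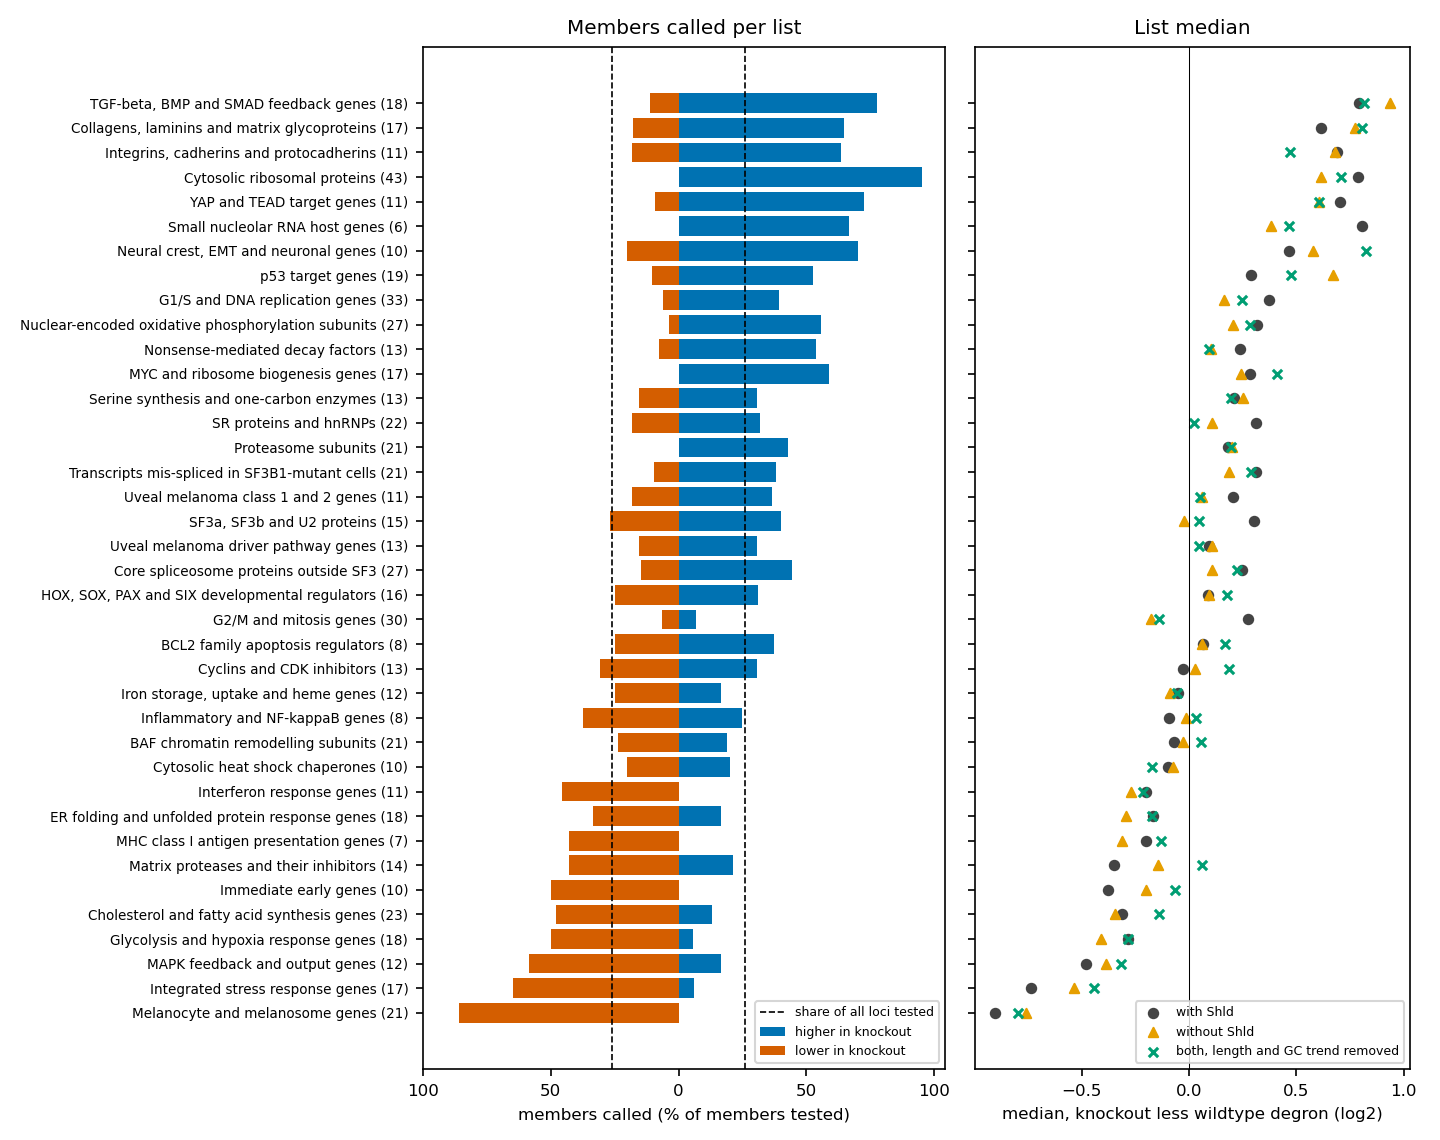
Left, the share of tested members called higher (blue, to the right) or lower (red, to the left) in the knockout line, in percent, for each gene list with at least 6 tested members (number tested in brackets), and dashed lines at the shares of all loci tested (26.0% each). Right, the median log2 difference of each list with Shld (circles), without Shld (triangles) and for both together with the length and GC trend removed (crosses). Among these lists, bars of ribosomal protein genes reach furthest to the right and those of melanocyte genes furthest to the left, and the medians of G2/M and mitosis genes lie on opposite sides of 0 with and without Shld.

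Some genes were close to absent in one line. A rule set after the values were seen (both libraries of one line under 0.5 rescaled FPKM and both of the other at 5 or more) found 9 genes near 0 in the knockout line and 7 near 0 in the wildtype degron line. Those near 0 in the knockout line were C13orf35, GCHFR, GPRIN3, HTN3, OCIAD2, the POU factor POU3F1, PSMD5, the small GTPase RAB33A and RGS1, a regulator of G protein signalling. RAB33A stood at 0.129 and 0.118 in the knockout line and between 9.31 and 16.3 in the other 6 libraries (log2 difference -3.23 ± 0.11, limma adjusted p = 2.0e-07). PSMD5 likewise stood above 7 in the other 6 libraries. OCIAD2 differed from these, since it was listed at 0 in the mutant degron libraries too. Those near 0 in the wildtype degron line were C19orf63,EMC10, EML6, H2BFXP, MYD88, NPR3, NRCAM and SCRG1. MYD88 stood between 7.33 and 11.9 in the other 6 libraries, so the wildtype degron line alone was near 0, and H2BFXP likewise lay between 7.90 and 14.0 in them. C19orf63,EMC10 was listed at 0 in the wildtype degron line and at 0.111 and 0.0629 in the mutant degron line, but at 12.2 and 13.2 in parental cells. An exact 0 in this kind of table can be a failed estimate.

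The other 2 lines were set beside each difference, and in most genes they did not lie on the same side. Of the 611 genes that differed at least 2-fold, the parental mean was nearer to the wildtype degron line and the mutant degron mean nearer to the knockout line in 329 (53.8%). Both were nearer to the knockout line in 134 (21.9%), both nearer to the wildtype degron line in 133 (21.8%), and the parental mean nearer to the knockout and the mutant degron mean nearer to the wildtype degron line in 15 (2.45%). NRCAM, FN1, CTGF and SPP1 followed the first pattern, MYD88 and H2BFXP the second, and HTN1, MFAP2, PSMD5, SEC24C and POSTN the third. Both knockout libraries lay above all other 6 in 148 of the 611 genes and below all other 6 in 270. Both wildtype degron libraries lay above all other 6 in 272 and below in 130. The same genes can be in 1 knockout and 1 wildtype degron count. No test was made of these counts, since the genes were chosen on 4 of the libraries for a difference between these 2 lines. Shares over all loci tested are not given beside them, so the counts do not show how unusual either line was.

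The line difference varied with base composition. Over the 7972 loci (92.7%) with a transcript in the annotation, the Spearman correlation of the difference was -0.366 with median transcript GC content and -0.0844 with median transcript length. Among loci in the lowest quintile of GC content 41.2% were higher in the knockout line and 9.84% lower, and in the highest quintile 10.9% were higher and 46.6% lower. The wildtype degron line less parental cells had a correlation of +0.316 with GC content, the mutant degron line less parental cells one of -0.213 and the knockout line less parental cells one of -0.0952; these contrasts share the parental libraries. After the trend of length and GC was removed, 3817 of 7972 loci were called, and 3089 of the 4473 calls (69.1%) remained.

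**Figure D5:**
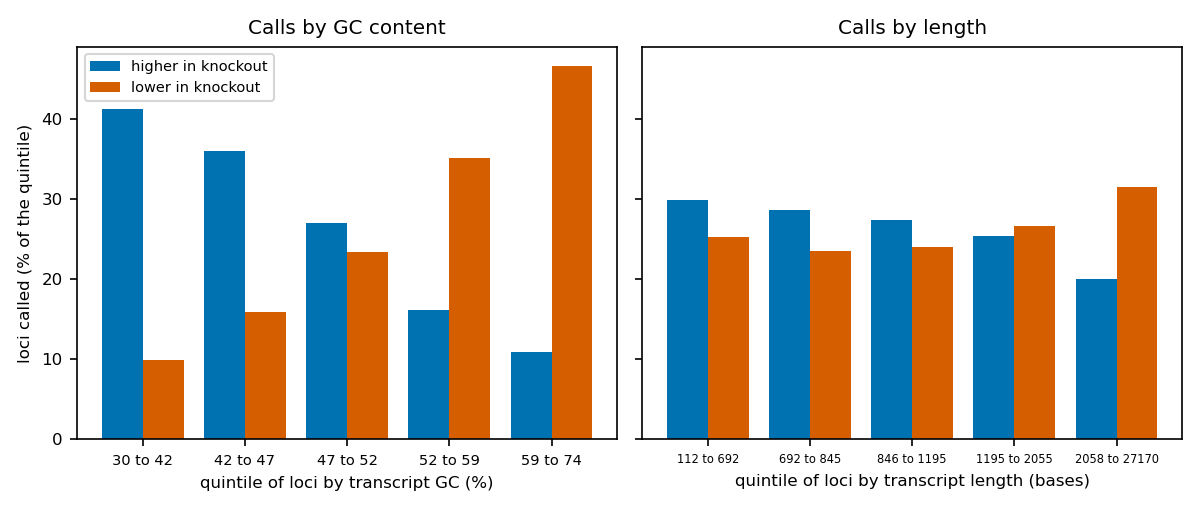
Share of loci called higher (blue) or lower (red) in the knockout line, in percent of the loci of each quintile, for quintiles by median transcript GC content in percent (left) and by median transcript length in bases (right). Calls higher in the knockout line decrease from 41.2% to 10.9% from the lowest to the highest quintile of GC content, and calls lower increase from 9.84% to 46.6%, while the quintiles by length vary less.

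Whether Shld removal changed the 2 lines differently was tested separately. A second limma model gave each of the 4 libraries its own coefficient, took the spread from the parental and mutant degron pairs, and tested the change on Shld removal in the knockout line less that in the wildtype degron line. Of 8601 loci 0 (0%) passed an adjusted p of 0.05, and 361 had an unadjusted p under 0.05. The spread rests on 2 residual degrees of freedom. The mutant degron pair also differs in Shld, so the spread can hold a response to its removal. A count of 0 therefore does not show that the 2 lines changed alike. With the spread from the parental pair alone 2 loci passed, NSUN4 and LOC390660, each with an adjusted p of 1.44e-05; LOC390660 was at 4.55 with Shld and listed at 0 without it in the knockout line. The lowest p-values were those of NSUN4, a mitochondrial RNA methyltransferase (+2.78 ± 0.32, adjusted p = 0.13), and CDKN1A (+1.34 ± 0.18, adjusted p = 0.27). NSUN4 was at 9.50 and 8.95 rescaled FPKM in the knockout line against 6.27 with Shld in the wildtype degron line, but listed at 0.000129 without it. CDKN1A went from 88.9 to 296 in the knockout line and from 118 to 155 in the wildtype degron line, which by the column names had unequal times without Shld. HIP1R, an endocytic adaptor, stood at 24.7 and 55.4 in the knockout line against 73.8 and 84.2 (+0.95), and SEL1L3 at 0.918 and 3.82 against 35.1 and 40.0 (+1.15); neither passed. In the knockout line 29 loci were at least 1 log2 unit apart between the Shld states and in the wildtype degron line 6.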

How the data were processed

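RNA libraries of MEL202 lines were made with a TruSeq kit and read as paired 100-base reads, per the labels' protocols. TopHat, Cufflinks and hg19 are named per the submitters' processing notes; for versions, annotation and strand nothing is stated. The deposited values are FPKM-type values per locus that the authors rescaled to a 75th percentile of 10 in every library, as the deposited values show; that they began as FPKM was inferred from the tools. The authors' table holds 8 libraries, 1 per line and Shld state, grouped by the labels, and columns were matched to samples by name.

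Small RNA loci and secondary loci of a symbol were left out, and named loci with a mean of at least 5 were log2-transformed after adding 1 and tested with limma (version 3.58.1, R version 4.3.3). Each line had 1 coefficient, so its 2 Shld states stood as replicates, with a trended prior and Benjamini-Hochberg adjustment over all loci; all 8 libraries entered the fit. The scripts were tested on simulated data. Named genes were the 15 largest differences each way (both libraries of the higher line at least 5, same sign in both states), SF3B1 and up to 5 members per list with the largest difference; a further 76 genes were named for their role after their values were seen, and a few genes that the rule chose are not reported here. The gene lists, the lines and the members were chosen with earlier results of these data known. Alternatives changed the pseudocount, level filter, scaling, libraries, Shld block and length or GC trend, the last chosen after seeing the data. The depth of the libraries is unknown, so no counting intervals are given.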

Additional observations from a re-analysis of the deposited data

How the results depend on the processing

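With the Shld state as a replicate block, 4994 loci were called in the 4 libraries of both lines and 4508 in all 8, against 4473 without it; the 2 states of a line are not replicates in time or treatment. The 4 libraries alone gave 3857 calls. Leaving out 1 library at a time gave 3256 to 4436 calls, the fewest without the wildtype degron library minus Shld. A mean of at least 20 gave 2777 calls (1436 higher, 1341 lower) among 5093 loci, with 105 at least 2-fold higher and 224 lower. No level filter gave 348 and 585 of these among 15369 loci, and a pseudocount of 5 gave 141 higher; fewer or more loci were tested, and a larger pseudocount shrinks differences of low genes. With length and GC trends removed (an alternative chosen after seeing the data) 3817 of 7972 loci were called, and 69.1% of the calls remained. The test of the Shld change called 2 loci with the parental pair alone and 0 otherwise. Of 41 gene lists with a tested member 25 had a median above 0, and 25 to 28 did under the alternatives. Of 201 genes that the naming rule chose and the test called, 172 were called under each alternative in which they were tested, and so were 37 of the 55 called among those named for their role. CDKN1A, not called, ranged from -0.60 (adjusted p = 0.0082), a reversed direction, without the knockout library minus Shld to +1.12 without the knockout library plus Shld. Levels near 0 cannot be resolved in this table, whose depth is unknown.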
